A study of Mus musculus with 2 samples.

Results

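The collagen genes were taken as every gene of the deposited gene list whose symbol is Col, a number, the letter a and a second number, which gave 44 of 27998 genes. They were read in 2 single-cell RNA libraries of the ocular area of C57BL/6J mouse embryos at the 26 somite stage (E9.25), when the surface ectoderm over the optic vesicle is about to thicken into the lens placode. The library labelled WT came from 1 wild type embryo and the library labelled KO from 1 Mab21l1-null embryo, each from its pair of optic areas, and neither carried a further allele or treatment in its labels. With 1 library per genotype no difference between them could be set against a spread between embryos, so values are given with exact 95% intervals that cover the counting error of unique molecular identifiers (UMIs, each marking 1 captured transcript) only, and no p-value is given. Of the 44 collagens, 42 had at least 1 UMI in the 4084 cells kept, 23 had at least 100 UMIs, 19 had 1 to 99 and 2 had none.

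Collagens are proteins of the extracellular matrix in which 3 chains wind into a triple helix. Fibrillar collagens (types I, II, III, V, XI, XXIV and XXVII) assemble into fibrils of connective tissue and cartilage, and fibril-associated collagens such as types IX and XII sit on the surface of such fibrils. Type IV collagen forms the sheet-like network of basement membranes, on which epithelia and blood vessels rest, and the multiplexins XV and XVIII are found in or next to these membranes. Transmembrane collagens such as XIII, XXIII and XXV stay anchored in the plasma membrane. In the early eye, a basement membrane lies on each of the facing surfaces of the lens ectoderm and the optic vesicle, and loose mesenchyme surrounds them.

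The library labelled WT held 1680 kept cells with a median of 21037 UMIs, and the library labelled KO held 2404 with a median of 18135. Levels are UMIs of a gene per 1000000 UMIs of the cells summed (CPM). Mab21l1 itself had 20.3 CPM in the library labelled WT (18.9 to 21.7) and 32.5 in the library labelled KO (31 to 34.1), and the files do not show which part of the transcript these 3′ tags came from. It differed by class: in ectoderm it had 79.1 CPM in WT (62.8 to 98.5) and 38.7 in KO (25.5 to 56.4, ratio 0.489, 0.304 to 0.766), in retina 46.6 and 74.7 (ratio 1.6, 1.4 to 1.84) and in pigment epithelium 26.1 and 42.5 (ratio 1.63, 1.25 to 2.12). WT and KO are names of the libraries' labels throughout. The libraries had 15 cell barcode sequences in common, none of them in the same cell class. Xist stood at 899 and 959 CPM and 4 Y-linked genes at 0 in both libraries, so the X-linked Col4a5 and Col4a6 were compared between libraries alike in these genes.

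Cells were put into classes by the number of marker genes with a UMI, with no collagen among the markers, and each class is called by the name of its marker list. In the order WT and KO, there were 136 and 189 cells of mesenchyme with more UMIs of a marker group that includes Foxc1 and Foxc2 than of one that includes Alx1 (Foxc-high), 288 and 467 of mesenchyme with the reverse (Alx-high), 63 and 100 of endothelium, 52 and 41 of ectoderm, 196 and 355 of retina, 110 and 129 of pigment epithelium, 106 and 123 of forebrain, 28 and 25 of neural crest, and 36 and 51 of the erythroid class. The 10 genes highest in each class relative to the other cells held genes of its own list or, in Foxc-high mesenchyme, of the score that divides the mesenchyme. The only marker of another list among them was Emx2, a forebrain marker, in Alx-high mesenchyme. Cells were selected by these lists and those passing several gates were left out, so these ranks are no separate check of the classes. The mesenchyme groups are ranges of a score rather than types: 76 of 452 mesenchyme cells labelled WT and 113 of 691 labelled KO lay within 1 UMI of the division. These classes held 69.1% of the 66334 collagen UMIs of the kept cells.

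Collagen transcripts were most abundant in mesenchyme and endothelium. All collagens together had 1384 CPM in Foxc-high mesenchyme labelled WT (1340 to 1429) and 1400 in that labelled KO (1358 to 1442), 1213 (1184 to 1242) and 1226 (1201 to 1251) in Alx-high mesenchyme, and 1402 (1347 to 1457) and 1296 (1251 to 1342) in endothelium. The neural crest class had 624 and 775, pigment epithelium 555 and 604, retina 453 and 515, ectoderm 457 and 571, and forebrain 328 and 365. In the library labelled WT, the intervals of Foxc-high mesenchyme and endothelium overlapped, as did those of retina and ectoderm. Erythroid cells, which should not make collagen and serve here as a reading of free RNA in the droplets, had 22.6 (15.2 to 32.5) and 42.9 (34 to 53.5), and no single collagen exceeded 8.69 there. Of the 23 collagens with at least 100 UMIs, 18 in Foxc-high and 17 in Alx-high mesenchyme had intervals above the erythroid level in both libraries. The numbers were 14 in neural crest, 10 in retina, 9 in endothelium, 9 in forebrain, 8 in ectoderm and 8 in pigment epithelium. The same count over all genes was not made. The UMIs summed per class ran from 371728 in neural crest to 10315346 in retina, both labelled KO, which affects such intervals. The numbers therefore do not rank the classes. Erythroid cells were deeper, at medians of 32480 and 33479 UMIs against 17742 and 16038 in ectoderm. An equal number of free UMIs per droplet thus gives fewer CPM in erythroid cells.

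**Figure D1:**
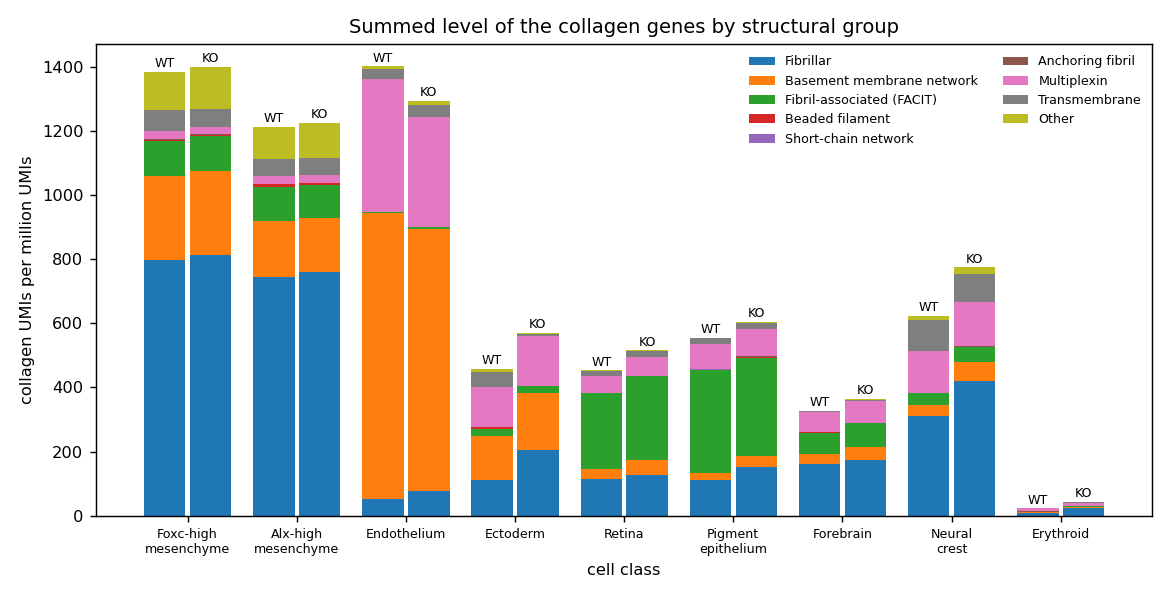
Summed level of all collagen genes in CPM (vertical axis, from 0) in each of 9 cell classes, with bars for the libraries labelled WT and KO stacked by structural group. Fibrillar chains fill most of the mesenchyme bars, basement membrane chains and multiplexins most of the endothelium bars and fibril-associated chains most of the retina and pigment epithelium bars, while the erythroid bars stand at 22.6 and 42.9.

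By structure, the 11 fibrillar genes held 41.3% of collagen UMIs over the kept cells, the 9 fibril-associated genes 23.7%, the 6 basement membrane genes 17%, the 2 multiplexins 9.69%, the 4 transmembrane genes 3.64%, and Col26a1 and Col28a1 together 4.27%. The 6 chains of the beaded filament collagen VI had only 192 UMIs in all, with 72 of Col6a2, 60 of Col6a1, 56 of Col6a3 and 4 of Col6a4, and Col6a5 and Col6a6 were the members with no UMI. Col7a1, the anchoring fibril collagen of skin, had 79 UMIs, and the short-chain network genes Col8a1, Col8a2 and Col10a1 had 18, 8 and 1. The other members under 100 UMIs were Col24a1 (63), Col16a1 (61), Col11a2 (50), Col4a4 (26), Col5a3 (19), Col19a1 (14), Col14a1 (13), Col20a1 (13), Col17a1 (8), Col28a1 (7) and Col4a3 (5), too few to be ordered among the classes. Of the 23 with at least 100 UMIs, 15 had the same highest class in both libraries. Some of these rest on few UMIs in that class. Col9a3 had 3 and 1 and Col22a1 2 and 2 in neural crest, and Col4a5 had 6 and 5 in ectoderm. The same share over all genes was not counted. Each UMI marks a transcript near its 3′ end, so levels of different genes were not divided by transcript length, although capture at the 3′ end can differ between genes.

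**Figure D2:**
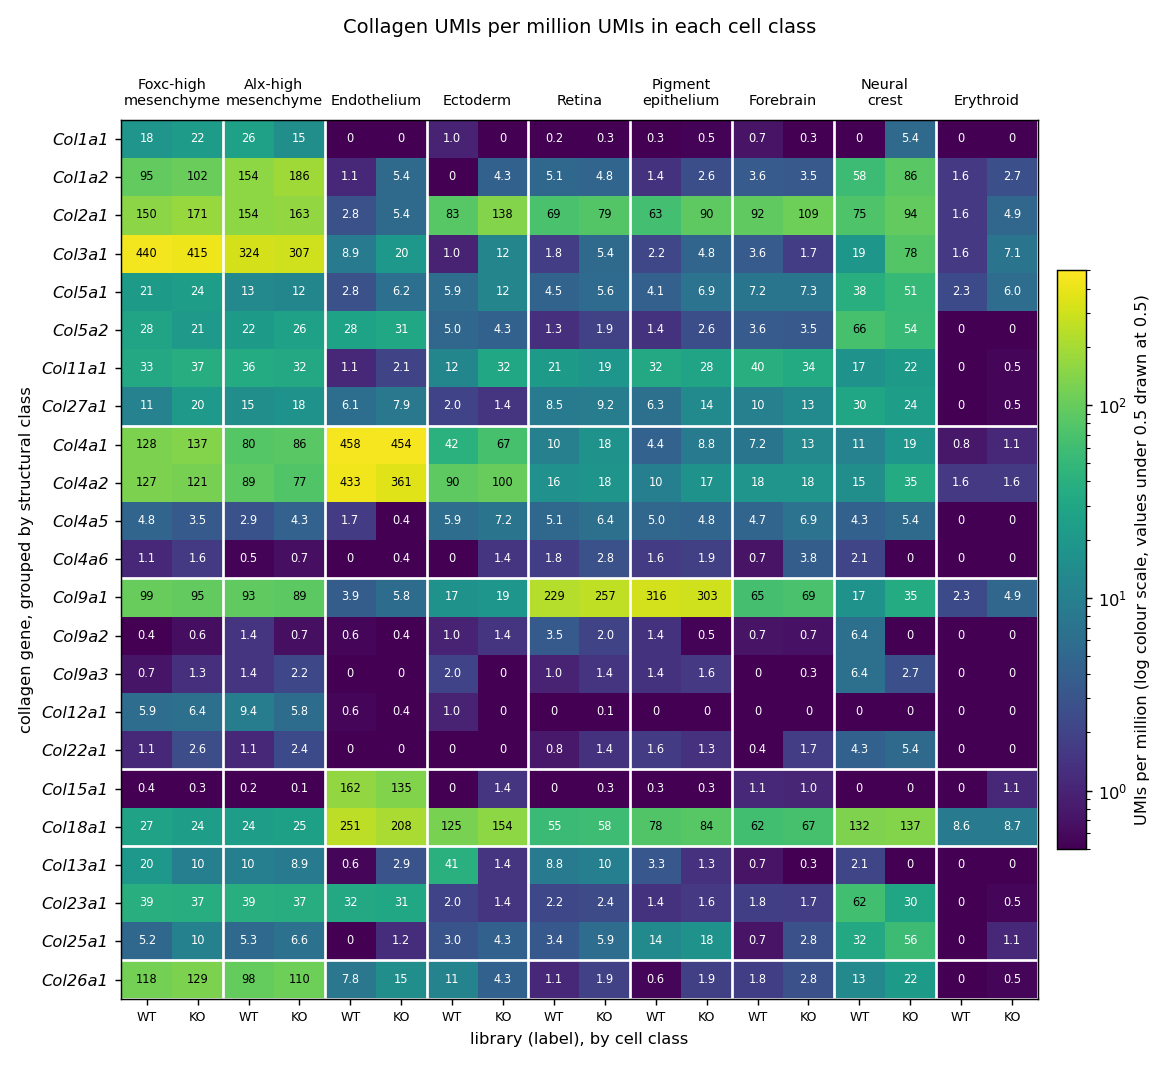
Level of each of the 23 collagens with at least 100 UMIs, in CPM (number and log colour scale), in every cell class and library, with white lines between structural groups. Col3a1 is brightest in both mesenchyme groups (440 and 415 in Foxc-high mesenchyme), Col4a1, Col4a2, Col18a1 and Col15a1 in endothelium and Col9a1 in retina and pigment epithelium.

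Fibrillar chains marked the mesenchyme. Col3a1, the chain of the homotrimeric type III collagen, which lies on chromosome 1 (45311538 to 45349706, plus strand, GRCm38), was the collagen with most UMIs there. It had 440 CPM in Foxc-high mesenchyme labelled WT (416 to 466) and 415 in that labelled KO (392 to 438), and 324 (309 to 339) and 307 (295 to 320) in Alx-high mesenchyme. After each cell was thinned to 10000 UMIs, 94.5% of 128 and 95% of 180 Foxc-high cells had a Col3a1 UMI (98.5% and 98.4% unthinned), against 5.56% of 36 and 3.92% of 51 erythroid cells (5.56% and 13.7% unthinned). Thinning left out 0 to 25 shallower cells per class and library. The median depth was 19536 and 15762 UMIs in Foxc-high cells and 32480 and 33479 in erythroid cells. Outside mesenchyme, Col3a1 had at most 19.9 CPM except in neural crest, at 19.2 and 78, the latter from 29 UMIs.

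Type I collagen, the main fibril of bone and tendon, is made of 2 chains of Col1a1 for each chain of Col1a2, yet UMIs of Col1a2 far outnumbered those of Col1a1. Col1a2 had 94.8 and 102 CPM in Foxc-high and 154 and 186 in Alx-high mesenchyme, and Col1a1 had 18.4 and 22.2 in Foxc-high and 25.9 and 15.1 in Alx-high mesenchyme. The UMI ratio of Col1a2 to Col1a1 was 5.16 (3.8 to 7.13) in Foxc-high mesenchyme labelled WT, 4.58 (3.52 to 6.03) in that labelled KO, 5.95 (4.99 to 7.15) in Alx-high mesenchyme labelled WT and 12.3 (10.2 to 15) in that labelled KO. The last interval was clear of the other 3. The minor fibril chains Col5a1 and Col5a2, which help set fibril diameter, lay between 12 and 27.9 CPM in the mesenchyme groups. Their UMI ratio, Col5a2 to Col5a1, was 1.31 and 0.878 in Foxc-high and 1.67 and 2.15 in Alx-high mesenchyme.

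Col2a1, best known as the chain of cartilage fibrils, was spread over all classes except endothelium and the erythroid class. Its level was 150 and 171 CPM in Foxc-high mesenchyme, 154 and 163 in Alx-high mesenchyme, 92 and 109 in forebrain, 83.1 and 138 in ectoderm, 74.8 and 94.2 in neural crest, 69.1 and 79.3 in retina and 63.3 and 89.5 in pigment epithelium. Endothelium had 2.77 and 5.4. Its companion Col11a1, a chain built into the same fibrils, was lower wherever Col2a1 was abundant and likewise lowest in endothelium and the erythroid class, with 32.7 and 37.3 in Foxc-high mesenchyme, 39.5 and 34 in forebrain, 11.9 and 31.6 in ectoderm and 1.11 and 2.08 in endothelium.

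A class was counted as higher in a gene when its level was at least 2-fold above that of the other classed cells in each library, among genes with at least 50 UMIs in the class. In Foxc-high mesenchyme 5 of 15 collagens passed (Col3a1, Col5a1, Col26a1, Col23a1 and Col1a1), where 3.06% of all 7965 genes did. In Alx-high mesenchyme 7 of 17 passed (Col3a1, Col5a2, Col26a1, Col1a2, Col12a1, Col23a1 and Col1a1), where 4.05% of all 9641 genes did. The folds of Col3a1 were 5.36 and 4.93 in Foxc-high and 5.15 and 5.32 in Alx-high mesenchyme, although the other classed cells then include the second mesenchyme group. Col1a2 reached 9.13 and 10.8 in Alx-high mesenchyme. The gates used none of these genes, but genes shared between mesenchyme cells need not be independent of the markers that gated them.

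Col26a1, a collagen with short helical stretches, was lower than Col2a1 in mesenchyme, at 118 and 129 CPM in Foxc-high and 97.9 and 110 in Alx-high cells. Elsewhere Col26a1 had at most 21.5. Col12a1, a fibril-associated chain of dense connective tissue, was low throughout, at 5.88 and 6.43 in Foxc-high and 9.45 and 5.78 in Alx-high mesenchyme and no more than 0.989 elsewhere. Col23a1, a transmembrane collagen, had 39.3 and 36.7 in Foxc-high mesenchyme, 39.2 and 37.1 in Alx-high mesenchyme, 32.1 and 31.1 in endothelium, 61.9 and 29.6 in neural crest, and at most 2.42 in the other classes. Neural crest cells, the Sox10-positive migrating population, had 29.9 and 35 CPM of the 5 mesenchyme markers summed, against 610 to 860 in the mesenchyme groups. The whole marker group that includes Alx1 summed to 664 and 696 CPM in Alx-high and 260 and 215 in Foxc-high mesenchyme. Neural crest cells had 184 and 218 CPM of it. The part of mesenchyme-like cells in their fibrillar levels was not tested. Their Col1a2 level was 57.7 and 86.1 and their levels of Col5a2, 66.2 and 53.8, and of Col5a1, 38.4 and 51.1, were the highest of any class, from 18 to 31 UMIs each. In neural crest 2 of 4 measured collagens (Col5a2 and Col18a1) were 2-fold above the other classes, where 4.57% of all genes were.

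Between the mesenchyme groups, 3 of 18 collagens with at least 50 UMIs (16.7%) differed by 1.5-fold in the same direction in both libraries. Of all 10258 genes, 2.91% did. Foxc-high cells had more Col5a1 (1.64-fold, 1.14 to 2.34, in WT and 1.99-fold, 1.44 to 2.73, in KO) and more Col4a1 (1.59-fold, 1.38 to 1.84, and 1.58-fold, 1.4 to 1.79), and fewer Col1a2 UMIs (ratio 0.616, 0.534 to 0.709, and 0.546, 0.482 to 0.617). Col4a2 was just short of the fold in WT, at 1.43 and 1.56. Col1a1 ran in opposite directions in the libraries, at 0.711 in WT and 1.47 in KO.

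Basement membrane chains dominated endothelium, the lining of blood vessels. Col4a1 and Col4a2 encode the chains of the main type IV trimer, which has 2 chains of the first for each of the second, and the genes lie head to head on chromosome 8, Col4a1 on the minus strand (11198423 to 11312826) and Col4a2 on the plus strand (11312805 to 11449287). Col4a5 and Col4a6, chains of a rarer network, form a second head-to-head pair on chromosome X. The RefSeq start sites of Col4a1 and Col4a2 are 21 bases apart, so their promoter windows (250 bases before to 50 after the start, GRCm38.p6) share 78 bases, whereas the starts of Col4a5 and Col4a6 are 1343 bases apart. The 4 windows are printed because the next values compare the chains of each pair: Col4a1 is chr8:11312777-11313076 on the minus strand, Col4a2 chr8:11312555-11312854 on the plus strand, Col4a5 chrX:141475169-141475468 on the plus strand and Col4a6 chrX:141474027-141474326 on the minus strand. Each reads 5′ to 3′ on its own gene's strand, with capitals marking every match on either strand to CCAAT or GGGCGG (no TATAAA was found in them).
Col4a1: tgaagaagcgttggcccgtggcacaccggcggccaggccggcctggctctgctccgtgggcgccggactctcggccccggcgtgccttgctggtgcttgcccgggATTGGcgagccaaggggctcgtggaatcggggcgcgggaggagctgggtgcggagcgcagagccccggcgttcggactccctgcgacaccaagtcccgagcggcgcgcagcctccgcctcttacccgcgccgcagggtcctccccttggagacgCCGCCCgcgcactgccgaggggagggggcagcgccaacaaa
Col4a2: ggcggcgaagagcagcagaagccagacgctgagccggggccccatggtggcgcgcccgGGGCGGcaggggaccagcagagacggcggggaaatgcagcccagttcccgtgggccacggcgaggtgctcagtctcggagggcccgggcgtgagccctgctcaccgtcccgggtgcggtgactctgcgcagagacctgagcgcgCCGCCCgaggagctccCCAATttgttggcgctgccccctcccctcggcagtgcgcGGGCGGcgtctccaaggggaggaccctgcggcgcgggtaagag
Col4a5: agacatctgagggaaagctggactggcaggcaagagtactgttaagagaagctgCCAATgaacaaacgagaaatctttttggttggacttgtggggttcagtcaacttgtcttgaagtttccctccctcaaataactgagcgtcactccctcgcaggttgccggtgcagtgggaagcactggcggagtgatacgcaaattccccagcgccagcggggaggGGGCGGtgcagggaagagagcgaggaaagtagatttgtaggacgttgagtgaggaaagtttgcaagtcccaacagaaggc
Col4a6: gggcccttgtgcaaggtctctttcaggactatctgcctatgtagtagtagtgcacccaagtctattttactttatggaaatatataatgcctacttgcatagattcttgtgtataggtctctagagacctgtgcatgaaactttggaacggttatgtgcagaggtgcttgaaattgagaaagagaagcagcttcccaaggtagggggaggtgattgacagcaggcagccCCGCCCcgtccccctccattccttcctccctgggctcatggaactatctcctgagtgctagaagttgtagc
Windows of this length held CCAAT or its complement in 37.4% of 32817 mouse promoters and GGGCGG in 35.6%, and 13 and 23 of 38 collagen windows held them. These matches are letters only and say nothing of binding.

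In endothelium Col4a1 had 458 CPM in WT (428 to 491) and 454 in KO (428 to 482), and Col4a2 had 433 (403 to 464) and 361 (337 to 386). Both were lower in Foxc-high mesenchyme, Col4a1 at 128 and 137 and Col4a2 at 127 and 121, and lower again in Alx-high mesenchyme, at 80.3 and 86.4 and at 89 and 77.3. Ectoderm had less Col4a1 still, at 41.6 and 67.4. Its Col4a2 level, 90 and 100, was close to that of Alx-high mesenchyme in WT. In KO the ectoderm value was the higher one, but the intervals overlapped (78.3 to 127 against 71.2 to 83.8). Retina, pigment epithelium, forebrain and neural crest had 4.4 to 18.8 of Col4a1 and 9.9 to 35 of Col4a2. Thinned to 10000 UMIs, 95.1% of 61 and 97.9% of 95 endothelial cells had a Col4a1 UMI (100% and 95% unthinned), against 0 of 36 and 1.96% of 51 erythroid cells (2.78% and 3.92% unthinned) and the share of 0 allows up to 8.33% by the limit of 3 counts used here for every 0.

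The UMI ratio of Col4a1 to Col4a2 differed with the class. It was near 1 in the classes with most Col4a1. The ratio was 1.06 (0.959 to 1.17) and 1.26 (1.15 to 1.38) in endothelium and 1.01 (0.864 to 1.17) and 1.13 (0.984 to 1.31) in Foxc-high mesenchyme. In Alx-high mesenchyme it was 0.902 (0.792 to 1.03) and 1.12 (0.998 to 1.25). In ectoderm and the classes of the neural wall it was lower: 0.462 (0.312 to 0.672) and 0.671 (0.454 to 0.986) in ectoderm, 0.444 (0.23 to 0.822) and 0.508 (0.323 to 0.783) in pigment epithelium, 0.618 (0.444 to 0.854) and 0.978 (0.793 to 1.21) in retina and 0.392 (0.221 to 0.669) and 0.698 (0.446 to 1.08) in forebrain. In the library labelled WT, the intervals of these 4 classes lay under 1 and under that of endothelium. In the library labelled KO, those of ectoderm and pigment epithelium did, and those of retina and forebrain reached past 1. In 7 of the 8 classes the ratio was higher in KO than in WT, the exception being neural crest with 5 and 7 Col4a1 UMIs. The first exons of the genes overlap on opposite strands at their 5′ starts, whereas UMIs mark transcripts near the 3′ end. Whether the counting used strand was not given in the sources used here. The part of this overlap in the ratio was not tested. Col4a5 had 0.415 to 7.17 CPM in every class but the erythroid one and Col4a6 at most 3.82, and their UMI ratio in retina, the class with most UMIs of both, was 2.91 (1.43 to 6.4) in WT and 2.28 (1.45 to 3.65) in KO.

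**Figure D3:**
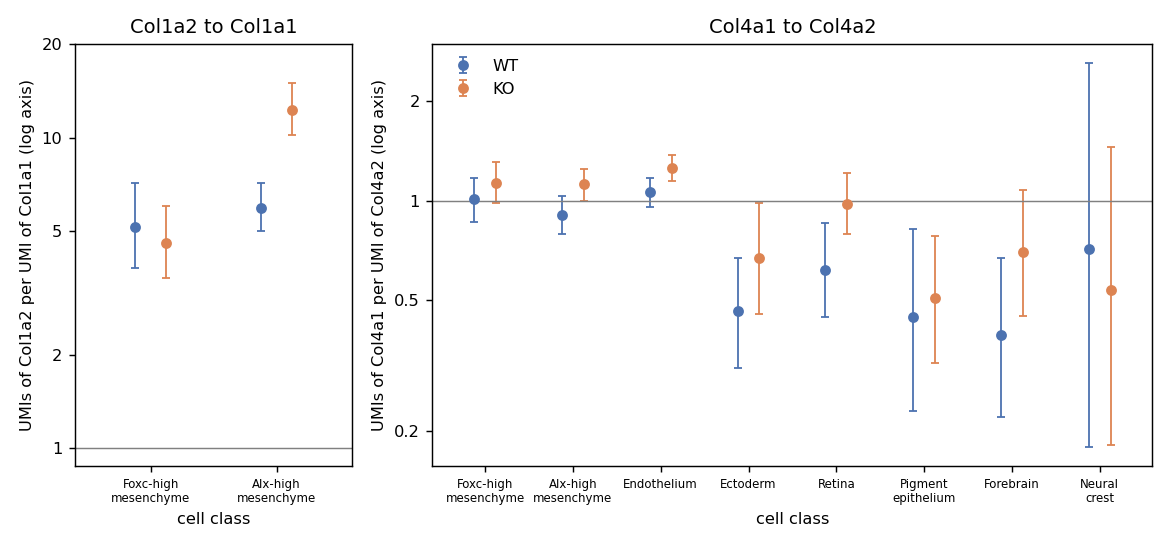
UMIs of Col1a2 per UMI of Col1a1 in the mesenchyme groups (left) and of Col4a1 per UMI of Col4a2 in 8 cell classes (right), on log axes, for the libraries labelled WT and KO with exact 95% intervals of counting error. The Col1a2 to Col1a1 ratio stands at 12.3 in Alx-high mesenchyme labelled KO against 4.58 to 5.95 in the other 3 samples of cells, and the Col4a1 to Col4a2 ratio is near 1 in mesenchyme and endothelium and under 1 in ectoderm and pigment epithelium.

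The multiplexins separated endothelium further. Col15a1, a proteoglycan collagen of vessel and muscle basement membranes on chromosome 4, had 162 CPM in WT (144 to 182) and 135 in KO (121 to 150) in endothelium and no more than 1.43 in any other class. After thinning, 82% of 61 and 69.5% of 95 endothelial cells had a Col15a1 UMI (88.9% and 80% unthinned). Of erythroid cells, 0 of 36 and 0 of 51 did (up to 8.33% and 5.88% by 3 counts, 0 and 3.92% unthinned). Col18a1, whose C-terminal fragment is endostatin, was present in every class, highest in endothelium (251 and 208), then in neural crest (132 and 137) and ectoderm (125 and 154). In neural crest and ectoderm no other collagen had as many UMIs. Col18a1 had 77.6 and 83.9 in pigment epithelium, 61.6 and 66.6 in forebrain, 54.8 and 58.4 in retina, 26.8 and 23.8 in Foxc-high and 24.3 and 25.1 in Alx-high mesenchyme, against 8.58 and 8.69 in erythroid cells. In endothelium 5 of 8 measured collagens (Col4a1, Col4a2, Col15a1, Col18a1 and Col5a2) were at least 2-fold above the other classes, where 13.3% of all genes were. Col5a2 outnumbered its usual partner there, at 27.7 and 31.1 CPM against 2.77 and 6.23 of Col5a1, a UMI ratio of 10 (4.01 to 32.1) and 5 (2.85 to 9.37). The erythroid class had 2.34 and 5.97 of Col5a1 and 0 of Col5a2.

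In ectoderm 0 of 4 measured collagens was 2-fold above the other classes in both libraries, where 5.26% of all genes were; Col18a1 came closest, just under 2-fold in WT and 2.55-fold in KO. In forebrain 0 of 7 was, where 2.34% of all genes were.

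Fibril-associated transcripts marked the optic vesicle derivatives, and nearly all of them came from a single chain, with 15060 of the 15710 UMIs of the group. Type IX collagen is a heterotrimer of the products of Col9a1, Col9a2 and Col9a3, known from cartilage and from the vitreous. Col9a1, on chromosome 1 (24177610 to 24252684, plus strand), had 316 CPM in pigment epithelium labelled WT (298 to 335) and 303 in that labelled KO (286 to 321), and 229 (217 to 241) and 257 (247 to 266) in retina. Foxc-high mesenchyme followed with 99.2 and 95.2, Alx-high mesenchyme with 92.6 and 88.9, and forebrain with 64.9 and 69.4, and endothelium had 3.87 and 5.81, near the 2.34 and 4.89 of erythroid cells. After thinning, 85.2% of 189 and 83.9% of 353 retina cells had a Col9a1 UMI (99% and 97.2% unthinned), against 0 of 36 and 7.84% of 51 erythroid cells (5.56% and 15.7% unthinned).

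The partner chains were almost absent. Pigment epithelium labelled WT held 1148 UMIs of Col9a1, 5 of Col9a2 and 5 of Col9a3, and that labelled KO held 1142, 2 and 6. Retina labelled WT held 1426, 22 and 6 and that labelled KO held 2646, 21 and 15. Across the classes in which Col9a1 passed 50 UMIs, no library had fewer than 39.8 Col9a1 UMIs for each UMI of either partner. Col9a3 shares exonic positions with Tcfl5 on the opposite strand, and whether this affected its few UMIs was not tested.

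In retina 1 of 13 measured collagens, Col9a1, was at least 2-fold above the other classes in both libraries (2.05 and 2.46), where 2.82% of all genes were. In pigment epithelium 2 of 7 were, where 3.64% of all genes were: Col9a1 (2.85 and 2.29) and the transmembrane Col25a1 (3.47 and 2.85), which had 13.5 and 17.5 CPM. Neural crest had still more Col25a1, at 32 and 56.5, from 15 and 21 UMIs.

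KO was set against WT class by class, to ask in which cells the collagen levels of the libraries labelled for Mab21l1, a gene needed for lens formation, differed. In the 8 classes outside the erythroid one, 14 pairs of a collagen and a class with at least 50 UMIs differed by 1.5-fold or more. Of them, 11 were higher and 3 lower in the library labelled KO. All of these rest on single embryos and most on fewer than 100 UMIs. Over all genes, 279 were higher and 229 lower in Foxc-high mesenchyme, 187 and 207 in Alx-high mesenchyme and 232 and 257 in endothelium. In the same order there were 211 and 283 in ectoderm, 171 and 184 in retina and 242 and 200 in pigment epithelium. Forebrain had 267 and 142 and neural crest 194 and 92. The share of all genes past the fold in either direction is given with each class below. The chains with most UMIs in Foxc-high mesenchyme were near equal in both libraries: the ratio KO over WT was 0.942 for Col3a1 (0.87 to 1.02), 1.14 for Col2a1 (1 to 1.3), 1.07 for Col4a1 (0.925 to 1.23), 1.09 for Col26a1 (0.936 to 1.26) and 0.948 for Col4a2 (0.817 to 1.1).

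**Figure D4:**
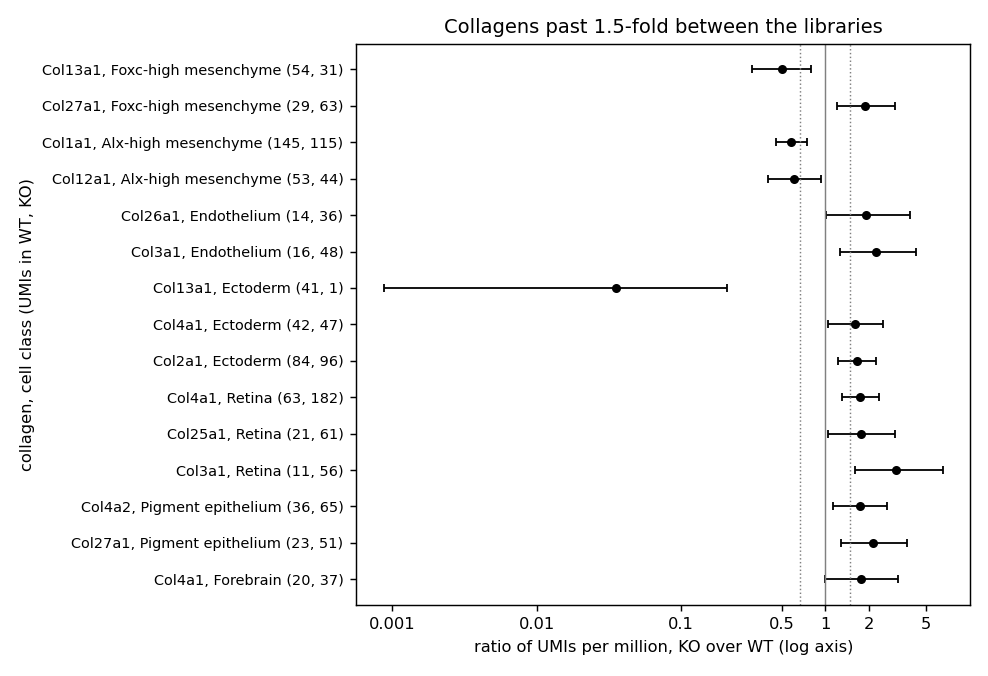
Ratio of CPM, KO over WT (log axis), with exact 95% intervals of counting error, for the 14 pairs of collagen and class past 1.5-fold with at least 50 UMIs and for Col13a1 in ectoderm (42 UMIs), with UMIs in WT and KO in brackets; dotted lines stand at 1.5-fold either way. Col13a1 in ectoderm lies at 0.0354, far to the left of the others, which run from 0.502 to 3.08.

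In Foxc-high mesenchyme 2 of 15 collagens were past the fold, where 6.38% of all genes were. Col27a1, a fibrillar chain of early cartilage, went from 10.7 CPM in WT to 20.3 in KO (ratio 1.9, 1.21 to 3.06), and Col13a1, a transmembrane collagen of adhesion sites, from 19.8 to 9.97 (ratio 0.502, 0.312 to 0.795). With cells thinned to 10000 UMIs the Col27a1 ratio was 1.42 and the Col13a1 ratio 0.305. The median ratio over the 15 collagens was 1.07, beside 1 over all genes.

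In Alx-high mesenchyme 2 of 17 were past the fold, where 4.09% of all genes were. Col1a1 went from 25.9 to 15.1 CPM (145 and 115 UMIs, ratio 0.584, 0.454 to 0.752), while its partner Col1a2 was at 154 and 186 (ratio 1.21, 1.11 to 1.32). Thinned, the Col1a1 ratio was 0.745. In Foxc-high mesenchyme Col1a1 stood at 18.4 and 22.2 (ratio 1.21, 0.827 to 1.77). Col12a1 went from 9.45 to 5.78 (ratio 0.612, 0.401 to 0.93). The most abundant chains were near 1 again, with ratios of 0.949 for Col3a1, 1.06 for Col2a1 and 1.12 for Col26a1, and the median over the 17 was 0.96.

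In endothelium 2 of 8 were past the fold, where 6.98% of all genes were, and both were chains that mesenchyme expresses far more. Col3a1 went from 8.86 to 19.9 CPM (16 and 48 UMIs, ratio 2.25, 1.26 to 4.25) and Col26a1 from 7.75 to 15 (14 and 36 UMIs, ratio 1.93, 1.02 to 3.87). The summed level of the 5 mesenchyme markers in endothelium was 8.86 and 12 CPM, with 4 and 5 of the 5 detected, and Col3a1 in erythroid cells was 1.56 and 7.06. With classes taken from clusters the Col3a1 ratio was 1.11, with cells of several classes assigned to the better one it was 1.34, and with cells of 2 or more mesenchyme markers left out it was 2.05. Thinned, the Col26a1 ratio was 0.927. The vessel collagens were slightly lower in KO: Col4a2 at a ratio of 0.834 (0.756 to 0.92), Col18a1 at 0.831 (0.731 to 0.946) and Col15a1 at 0.832 (0.708 to 0.978), beside Col4a1 at 0.991 (0.905 to 1.09). The part of free RNA and of mesenchyme RNA in these values was not tested.

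In ectoderm, the class that holds the lens placode, 2 of 4 collagens were past the fold, where 11% of all genes were. Col2a1 went from 83.1 to 138 CPM (84 and 96 UMIs, ratio 1.66, 1.22 to 2.25) and Col4a1 from 41.6 to 67.4 (42 and 47 UMIs, ratio 1.62, 1.05 to 2.52). Without the mitochondrial limit these ratios were 1.34 and 1.38. In the same cells Col3a1 had 1 and 8 UMIs (ratio 11.6, 1.56 to 515), Alx1 and Alx4 summed to 0.989 and 5.74 CPM (1 and 4 UMIs), Foxc1, Foxc2 and Foxd2 to 56.4 and 34.4, and the 5 mesenchyme markers to 50.5 and 56. Their part in the collagen differences was not tested. Col4a2 and Col18a1 had ratios of 1.12 (0.805 to 1.54) and 1.23 (0.943 to 1.61). Some ectoderm cells had UMIs of both Pax6 and Six3, genes of the lens-forming ectoderm. In them Col2a1 was at 63.5 (46.5 to 84.7) in 34 cells labelled WT and 122 (92.6 to 158) in 24 labelled KO. In the other ectoderm cells Col2a1 was at 133 (93.8 to 182) in 18 and 169 (120 to 231) in 17. Col4a1 went from 47 to 64.4 in the Pax6 and Six3 cells and from 27.9 to 73.6 (8 and 17 UMIs) in the others. Col4a2 went from 69.1 to 107 and from 143 to 86.6, with overlapping intervals. The study reports lower Pax6 and Six3 in Mab21l1-null lens placode cells. Requiring UMIs of both can therefore select unlike cells in the libraries, which was not tested.

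Col13a1 in ectoderm fell short of the minimum with 42 UMIs and is given because its values stood out once seen. It had 41 UMIs in ectoderm labelled WT, or 40.6 CPM (29.1 to 55), and 1 in ectoderm labelled KO, or 1.43 CPM (0.0363 to 7.99), a ratio of 0.0354 (0.000874 to 0.208). The WT value was the highest Col13a1 level of any class. Of those 41 UMIs, 40 lay in the Pax6 and Six3 cells, in 17 of 34 cells. The 24 such cells labelled KO had 0, which allows up to 6.44 CPM by 3 counts. The limit given above for this division of ectoderm cells holds here too. Thinned to 10000 UMIs, 20.8% of 48 ectoderm cells labelled WT (10.5% to 35%) and 0 of 38 labelled KO (up to 7.89% by 3 counts) had a Col13a1 UMI. The unthinned shares were 34.6% and 2.44%, beside 0 in erythroid cells of either library. Retina, beneath the placode, had 8.82 and 9.89 CPM of Col13a1 and Alx-high mesenchyme 9.81 and 8.94.

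**Figure D5:**
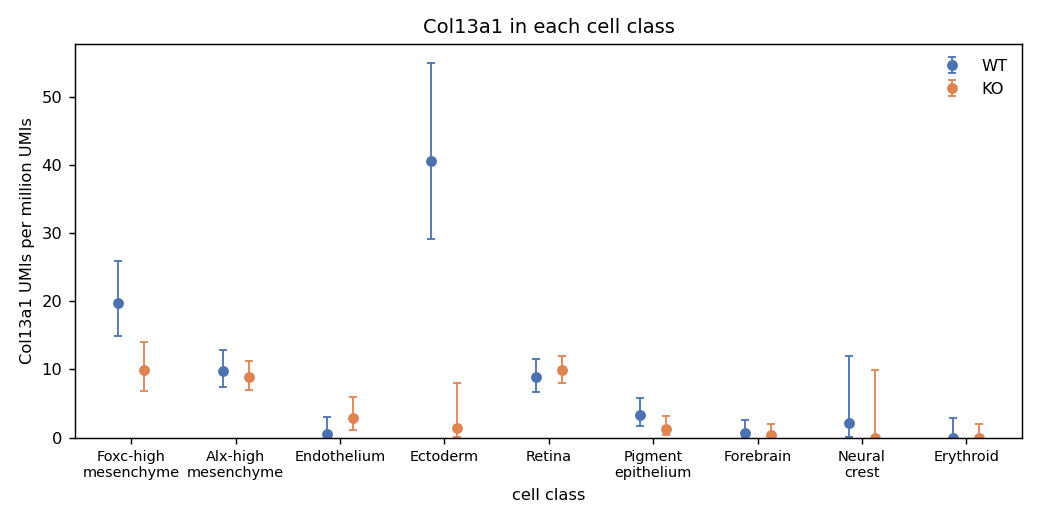
Col13a1 level in CPM (vertical axis, from 0) in 9 cell classes, with points for the libraries labelled WT and KO and exact 95% Poisson intervals. The ectoderm points stand at 40.6 in WT and 1.43 in KO, the Foxc-high points at 19.8 and 9.97, and those of retina and Alx-high mesenchyme nearly coincide.

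In retina 3 of 13 were past the fold, where 3.52% of all genes were. Col4a1 went from 10.1 to 17.6 CPM (63 and 182 UMIs, ratio 1.75, 1.31 to 2.37), beside a Col4a2 ratio of 1.1 (0.862 to 1.42). Col25a1 went from 3.37 to 5.91 (ratio 1.76, 1.05 to 3.04). Col3a1 went from 1.76 to 5.43 (11 and 56 UMIs, ratio 3.08, 1.6 to 6.52), beside 1.56 and 7.06 in erythroid cells (2 and 13 UMIs, ratio 4.52, 1.02 to 41.3). In retina the 5 mesenchyme markers summed to 49.2 and 45.2 CPM, while Alx1 and Alx4 summed to 1.76 (0.88 to 3.15) and 3.78 (2.69 to 5.17) and Foxc1, Foxc2 and Foxd2 to 3.05 and 5.23. Leaving out cells with 2 or more mesenchyme markers gave 1.77 for Col3a1 and 1.76 for Col4a1, and assigning cells of several classes to the better one gave 1.54 and just under 1.5. With classes from clusters Col4a1 was at 1.47. The part of mesenchyme RNA in these values was not tested. Of the 13, 11 were above 1, with a median of 1.12 beside 0.994 over all genes, and the most abundant ones were Col9a1 (1.12, 1.05 to 1.2), Col2a1 (1.15, 1.02 to 1.29), Col18a1 (1.06, 0.931 to 1.22) and Col11a1 (0.882, 0.704 to 1.11).

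In pigment epithelium 2 of 7 were past the fold, where 5.24% of all genes were. Col27a1 went from 6.33 to 13.5 CPM (23 and 51 UMIs, ratio 2.14, 1.28 to 3.67) and Col4a2 from 9.9 to 17.3 (36 and 65 UMIs, ratio 1.74, 1.14 to 2.7), the latter at 1.05 when thinned and 1.38 as a mean over cells. Col2a1 was at 1.41 (1.19 to 1.68), Col9a1 at 0.96 (0.884 to 1.04), Col18a1 at 1.08 (0.918 to 1.27) and Col11a1 at 0.882 (0.671 to 1.16). In forebrain 1 of 7 was past the fold, where 5.34% of all genes were. Col4a1 went from 7.25 to 12.8 (20 and 37 UMIs, ratio 1.77, 1 to 3.22), or a ratio of 1.42 with classes from clusters. The most abundant forebrain chains were nearer 1: Col2a1 (1.18, 0.997 to 1.4), Col9a1 (1.07, 0.87 to 1.32), Col18a1 (1.08, 0.875 to 1.34) and Col11a1 (0.861, 0.649 to 1.14). In the same forebrain cells the 5 mesenchyme markers summed to 12.7 and 20.1 and Alx1 and Alx4 to 2.17 and 4.51, and in pigment epithelium to 22.3 and 25.2 and to 2.2 and 5.57. Their part in the Col4a1 and Col4a2 differences was not tested. In neural crest 0 of 4 was past the fold, where 12.7% of all genes were. Col1a2 was just inside the fold, with 27 and 32 UMIs and a ratio of 1.49 (0.866 to 2.59). Col18a1 was at 1.04 (0.701 to 1.53), Col2a1 at 1.26 (0.765 to 2.07) and Col5a2 at 0.813 (0.439 to 1.47).

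Seen over classes, Col2a1 was higher in KO in each of the 7 classes where it had at least 50 UMIs, with ratios of 1.06 to 1.66, and Col27a1 in each of 5, with ratios of 1.08 to 2.14. Erythroid Col2a1 was 1.56 and 4.89 CPM, from 2 and 9 UMIs (ratio 3.13, 0.648 to 29.8), and the part of free RNA in these differences was not tested. Col4a1 was higher in 5 of 6 classes and Col4a2 in 3 of 7. Col25a1 and Col26a1 were higher in each of 3 classes, with ratios of 1.23 to 1.76 and 1.09 to 1.93. Col23a1 was slightly lower in each of 3 classes, with ratios of 0.932 to 0.97. How often other genes ran one way over all their classes was not counted. These classes come from the same 2 embryos and are no replicates of each other.

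The genes that fold, process, cross-link and bind collagens were read as a list of 54. With at least 50 UMIs, 3 of 33 were past 1.5-fold higher in KO and 2 lower in Foxc-high mesenchyme, 0 and 2 of 38 in Alx-high mesenchyme, 1 and 1 of 26 in endothelium, 1 and 0 of 12 in ectoderm, 3 and 0 of 32 in retina, 2 and 1 of 27 in pigment epithelium, 0 and 1 of 17 in forebrain and 0 of 6 in neural crest. The shares of all genes past the fold are those given above for each class. The median ratio of the list lay between 0.967 and 1.17 over the classes, beside 0.994 to 1.05 for all genes. Serpinh1, the chaperone HSP47 that binds folded procollagen, had 924 and 930 CPM in endothelium, 666 and 729 in Foxc-high mesenchyme and 172 and 195 in forebrain, and its ratios lay between 0.91 and 1.16 in all 8 classes. Sparc, a collagen-binding matrix protein, had 652 and 647 in endothelium and 325 and 316 in pigment epithelium, with ratios between 0.972 and 1.27.

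Among enzymes, Lox, which cross-links collagen fibrils, went from 11.8 to 22.2 CPM in Foxc-high mesenchyme (ratio 1.89, 1.22 to 2.96) and stood at 22.3 and 17.2 in Alx-high mesenchyme (ratio 0.772, 0.6 to 0.995). Pcolce, an enhancer of procollagen C-propeptide cleavage, went from 51.1 to 82 in Foxc-high mesenchyme (139 and 255 UMIs, ratio 1.6, 1.3 to 1.99). Loxl1 in Alx-high mesenchyme had a ratio of 0.553 (0.323 to 0.936) and the lysyl oxidase relative Loxl2 in endothelium one of 0.633 (0.475 to 0.844). The prolyl 3-hydroxylase family member P3h3 in endothelium went from 8.86 to 21.6 (ratio 2.44, 1.37 to 4.58). Colgalt1, which adds galactose to hydroxylysines, had a ratio of 1.73 (0.993 to 3.03) in ectoderm, and Fkbp10, a prolyl isomerase of the endoplasmic reticulum, 1.74 (1.06 to 2.94) in pigment epithelium. P4ha1 and Plod1, which hydroxylate prolines and lysines of the chains, had ratios of 0.883 to 1.38 wherever they were measured.

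Of the basement membrane partners, the laminin chains Lamb1 and Lamc1 lay between 0.708 and 1.24, nidogen Nid1 between 0.797 and 0.971 and the heparan sulfate proteoglycan Hspg2 between 0.891 and 1.42. Lama1 in Foxc-high mesenchyme had a ratio of 0.597 (0.356 to 0.99) from 41 and 28 UMIs, and Agrn in pigment epithelium 1.69 (1.13 to 2.56). Of the receptors, Ddr2 was measured in mesenchyme (57 and 62.1 CPM in Foxc-high cells) and Ddr1 in the neural classes (15.9 and 19.3 in retina), with ratios between 0.849 and 1.22. Proteases and their inhibitors made up all 3 of the genes past the fold in retina, Mmp2 (1.79, 1.12 to 2.94), Timp1 (1.83, 1.21 to 2.85) and Timp3 (1.62, 0.979 to 2.78), and Mmp14, a membrane-bound collagenase, had a ratio of 0.493 (0.288 to 0.823) in pigment epithelium. Timp2, an inhibitor of these enzymes, had one of 0.658 (0.476 to 0.905) in forebrain.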

How the data were processed

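Droplet libraries (10x Chromium, 3′ kit) were counted by the authors with Cell Ranger against mm10 (GRCm38); the gene annotation release was not given in the sources used here. The deposited values are raw UMI counts per gene and cell, with no normalization. A cell was retained if it had between 1500 and 8000 genes with a UMI and no more than 5% of UMIs from mitochondrial genes (the methods print this limit as a hundredth of that, which would keep almost no cell), leaving 4084 of 4203 barcodes, the total that the study gives.

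Cells were classed by the number of list markers with a UMI: endothelium 5 of 10, erythroid 4 of 8, macrophage 4 of 6, neural crest 4 of 7, ectoderm 5 of 11, mesenchyme 3 of 5, retina 8 of 9, pigment epithelium 5 of 8 and forebrain 4 of 9. Mesenchyme was divided by the summed UMIs of a pair of marker groups, of which not every gene is reported here. Members, lists and these numbers were chosen with earlier results of these data known. No doublet caller was run. Cells passing several gates were left out. So were cells passing the endothelium, erythroid, macrophage, neural crest or mesenchyme gate with 5 or more retina markers (142 and 154 in all). This retina limit was not applied to the ectoderm, pigment epithelium and forebrain gates. Also left out were cells passing none (478 and 729), mesenchyme cells with equal group scores (28 and 35) and macrophages (17 and 6). Clusters of the same name held 75.5% of retina, 74.9% of pigment epithelium and 81.2% of forebrain cells. They held at least 97.5% of each other class. Many kept cells sat at exactly the number required, for retina 161 and 231 cells, beside 196 and 355 cells in the class. These 161 and 231 were counted before cells passing several gates were left out.

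UMIs were summed per class and library and divided by their total. Sums have exact Poisson, shares exact Clopper-Pearson and ratios exact conditional intervals, and a share or sum of 0 is given the limit that 3 counts allow. The ratios and their intervals were tested on counts simulated from the Poisson model that the intervals assume, without variation between cells. Collagens with at least 100 UMIs were described by level. Between libraries, those with at least 50 UMIs in a class and 1.5-fold were described, plus the 4 most abundant per class. In neural crest the latter were limited to collagens with at least 50 UMIs. Positions came from GENCODE for all 44 genes, and promoter windows from RefSeq for 35. Python 3.11.15, numpy 2.4.6, scipy 1.17.1 and scanpy 1.11.5 were used.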

Additional observations from a re-analysis of the deposited data

How the results depend on the processing

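The 14 collagen and class pairs past 1.5-fold were 12 to 18 under 8 alternatives: no mitochondrial limit, no upper limit on detected genes, 1 more marker, cells of several classes assigned to the better one, means over cells, scaling by the median ratio of all genes and, both chosen after seeing the data, leaving out cells with no Xist UMI or with 2 or more mesenchyme markers. They were 22 with classes from Leiden clusters, 36 with a minimum of 20 UMIs, 2 with a minimum of 200, 3 at a fold of 2 and 2 after thinning, which leaves fewer UMIs. The 17 pathway pairs were 32, 2, 2 and 8 under the last 4 of these. Requiring 1 more marker cut the cells in classes from 2495 to 1659. The 22 calls of a class above the others were 18 to 27. Over 10 alternatives, 14 of the 15 named ratios kept their direction, and Col26a1 in endothelium turned to 0.927 after thinning. The chain ratios recomputed were Col1a2 to Col1a1 in Alx-high mesenchyme and Col4a1 to Col4a2 in endothelium and ectoderm. All 48 recomputed values stayed within their counting intervals, and ratios of other pairs or classes were not recomputed. No paired analysis was possible because each genotype has 1 library, and for the same reason no replicate could be left out.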
